A study of Mus musculus with 16 samples.

Results

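Neurotrophins are secreted growth factors that sustain neurons and adjust their synapses, and this account covers 6 genes of that system in mouse hippocampus: the ligand genes Bdnf and Gdnf and the receptor genes Ntrk2, Ntrk3, Ngfr and Sort1. They were taken by name from a list, each through the probe set with its single gene symbol, or the brighter one where a gene had more than 1. All 6 were found among the 22180 genes measured. Gdnf encodes a ligand of another growth factor family, that of glial cell line-derived neurotrophic factor (GDNF), and so is not a neurotrophin in the strict sense.

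The data came from 16 Affymetrix arrays, each of 1 mouse, in 4 groups of 4. Astro-D2KO mice after SE carried the floxed Dio2 gene and a glial Cre, and received pilocarpine, a muscarinic agonist that brings on the prolonged seizure called status epilepticus (SE). Astro-D2KO mice under saline had the same genotype and received saline. Control mice after SE had wild-type Dio2 with the same glial Cre and received pilocarpine, and control mice under saline received saline. Dio2 encodes the type 2 deiodinase, which makes the active thyroid hormone T3 from thyroxine. All mice were C57BL/6 of 8 to 10 weeks, and all had lithium chloride at 10 mEq/kg, 18 h before pilocarpine at 65 mg/kg or saline. The sources used here do not give the promoter that drives the Cre, the sex of the mice or the time between pilocarpine and collection. Drug and seizure effects cannot be told apart, because every SE mouse and no saline mouse received pilocarpine. All levels below are log2 values from RMA, which corrects, quantile-normalises and summarises the probes of a probe set.

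Brain-derived neurotrophic factor (BDNF) is made as a precursor, proBDNF. The mature form signals through the receptor kinase TrkB, encoded by Ntrk2, and the precursor through p75, encoded by Ngfr, together with sortilin, encoded by Sort1. TrkC, encoded by Ntrk3, is the receptor for neurotrophin-3. In the hippocampus Bdnf is a classic activity-regulated gene of excitatory neurons, transcribed from several alternative promoters, of which some respond to calcium through CREB and related factors. Ntrk2 is made both as a full-length kinase in neurons and as a truncated form without the kinase, which is abundant in astrocytes. GDNF binds a co-receptor of the GFR-alpha family and signals through the kinase Ret.

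The start regions of Bdnf and Gdnf are shown because both ligand genes rose after SE. RefSeq start regions on GRCm38.p6, from 250 bases before a transcript start to 50 after it, were at hand for 4 of the 6 genes, with 7 for Bdnf, 2 for Gdnf and 1 each for Ntrk2 and Ngfr. They were searched on both strands for the CRE half-site TGACG, which CREB can bind, and the full CRE TGACGTCA, which contains the half-site. The third pattern was TGANTCA, a loose form of the AP-1 site in which N is any base and not only C or G. Of the 11 regions, 2 held a CRE half-site, 1 held the loose AP-1 pattern and 0 held a full CRE. Over all 32851 start regions of that length, 20.8% held the half-site, 1.79% the full CRE and 7.81% the loose AP-1 pattern. The capitals below mark the matches, and a match is a description of letters, not a shown binding site. The third and the second of the Bdnf regions in genome order and the first Gdnf region, all on the plus strand, were these.
Bdnf, chr2:109692186-109692485: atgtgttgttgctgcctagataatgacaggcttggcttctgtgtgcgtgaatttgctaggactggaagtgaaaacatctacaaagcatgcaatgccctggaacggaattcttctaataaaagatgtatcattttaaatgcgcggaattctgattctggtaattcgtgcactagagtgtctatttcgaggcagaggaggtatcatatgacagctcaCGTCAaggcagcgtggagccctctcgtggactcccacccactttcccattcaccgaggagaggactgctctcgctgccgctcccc
Bdnf, chr2:109676782-109677081: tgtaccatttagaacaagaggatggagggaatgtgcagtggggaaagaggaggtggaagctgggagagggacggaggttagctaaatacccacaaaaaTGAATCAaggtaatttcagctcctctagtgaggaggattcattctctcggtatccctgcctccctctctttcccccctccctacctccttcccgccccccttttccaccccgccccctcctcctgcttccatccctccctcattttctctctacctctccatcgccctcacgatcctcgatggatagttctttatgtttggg
Gdnf, chr15:7809798-7810097: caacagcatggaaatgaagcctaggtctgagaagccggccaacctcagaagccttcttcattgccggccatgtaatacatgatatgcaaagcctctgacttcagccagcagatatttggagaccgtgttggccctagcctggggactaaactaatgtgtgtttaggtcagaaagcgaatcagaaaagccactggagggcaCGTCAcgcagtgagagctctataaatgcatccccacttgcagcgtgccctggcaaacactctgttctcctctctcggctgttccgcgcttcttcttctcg
In the first of these the capitals CGTCA, the half-site of the minus strand, have their first plus-strand base 35 bases before the transcript start. The match to the loose AP-1 pattern in the other Bdnf region, TGAATCA, has A as the open base and begins 152 bases before its start. In the Gdnf region CGTCA, again a half-site of the minus strand, has its first plus-strand base 50 bases before the transcript start. The Bdnf probe set gave 1 value per array, so the use of single promoters was not measured.

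Some facts of the whole series bear on the values. The brighter of the Dio2 probe sets, that of the deleted gene, stood between 7.03 and 8.91 in Astro-D2KO mice after SE and between 7.99 and 9.51 in control mice after SE, and the overlap came from the array labelled Astro-D2KO SE replicate 1 (8.91) and the array labelled control SE replicate 4 (7.99). Under saline its range was 6.52 to 7.09 in Astro-D2KO mice and 7.87 to 8.28 in control mice, with no overlap. The Astro-D2KO minus control difference was -1.36 under saline and -1.41 after SE, the largest fall of the 22180 genes in either comparison. Neither passed in limma over all genes (unadjusted p = 0.00107 and 0.000797, adjusted p = 0.999 and 0.532). The fit takes 1 spread per gene from all 4 groups. The SD of this probe set was 0.91 in Astro-D2KO and 0.67 in control mice after SE. Under saline it was 0.23 and 0.19. A second, dim Dio2 probe set differed by -0.09 and -0.12 and did not pass. The sources used here do not say whether either Dio2 probe set reads the deleted part. The tests of the 6 genes and the counts of the pathway lists were also computed without the arrays labelled Astro-D2KO SE replicate 1 and control SE replicate 4. The marker lists and the profile comparison were not. Arrays have no read depth, so 4 arrays a group limit the precision. Exact permutation tests of 4 against 4 cannot go below a two-sided p of 0.0286.

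Bdnf had the largest response of the 6 genes, about 4-fold higher after SE in either genotype. In Astro-D2KO mice its levels in replicates 1 to 4 were 8.62, 8.66, 8.50 and 8.76 after SE, against 6.65, 6.83, 6.31 and 6.65 under saline. Every SE array lay above every saline array, and the array labelled Astro-D2KO SE replicate 1 lay between the others of its group. Bdnf rose there by 2.02 ± 0.12 (standard error of the fit) on the log2 scale, or 4.06-fold, with a limma adjusted p of 1.05e-08. The rise ranked 48 from the top among the 22180 genes.

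In control mice Bdnf stood at 8.54, 8.37, 8.83 and 8.49 after SE, against 6.75, 6.43, 6.64 and 6.36 under saline. Again the groups did not overlap, and the array labelled control SE replicate 4 sat within the range of the other SE arrays. The rise was 2.01 ± 0.12, or 4.04-fold (limma adjusted p = 6.98e-09), and ranked 50. Without both arrays whose Dio2 level stood apart, it was 2.03 in Astro-D2KO mice and 2.04 in control mice.

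Gdnf, the other ligand gene, rose less and from a dim signal. Its mean over the 16 arrays, 4.65, was above that of only 26.9% of all probe sets, and the table holds no call of detection. In Astro-D2KO mice Gdnf stood at 4.77, 5.28, 5.19 and 5.25 after SE, against 4.36, 4.39, 3.99 and 4.11 under saline. The lowest SE array was the array labelled Astro-D2KO SE replicate 1, and it was still above all saline arrays. Gdnf rose there by 0.91 ± 0.17 (1.88-fold, limma adjusted p = 0.000903), and by 1.03 without that array.

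In control mice Gdnf stood at 4.76, 4.58, 5.05 and 5.58 after SE, against 4.25, 4.35, 4.31 and 4.23 under saline. The SE arrays all lay above the saline arrays, and the highest was the array labelled control SE replicate 4. The rise was 0.71 ± 0.17 (1.63-fold, limma adjusted p = 0.00524), and 0.51 without that array (adjusted p = 0.0118).

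Ntrk2, the TrkB gene, was the receptor gene that rose. In Astro-D2KO mice it stood at 10.71, 10.44, 10.59 and 10.67 after SE, against 9.76, 9.74, 9.90 and 9.74 under saline. The gap between the groups was wider than the range within either. The rise was 0.81 ± 0.088 (1.76-fold, limma adjusted p = 5.45e-06).

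In control mice Ntrk2 stood at 10.74, 10.68, 10.74 and 10.38 after SE, against 9.79, 9.90, 9.92 and 9.82 under saline. The array labelled control SE replicate 4 was the lowest of its group by a clear margin, yet above every saline array. Ntrk2 rose by 0.78 ± 0.088 (1.71-fold, limma adjusted p = 8.27e-06), and by 0.86 without that array. A single probe set stood for Ntrk2, so the full-length and truncated forms were not separated here.

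**Figure D1:**
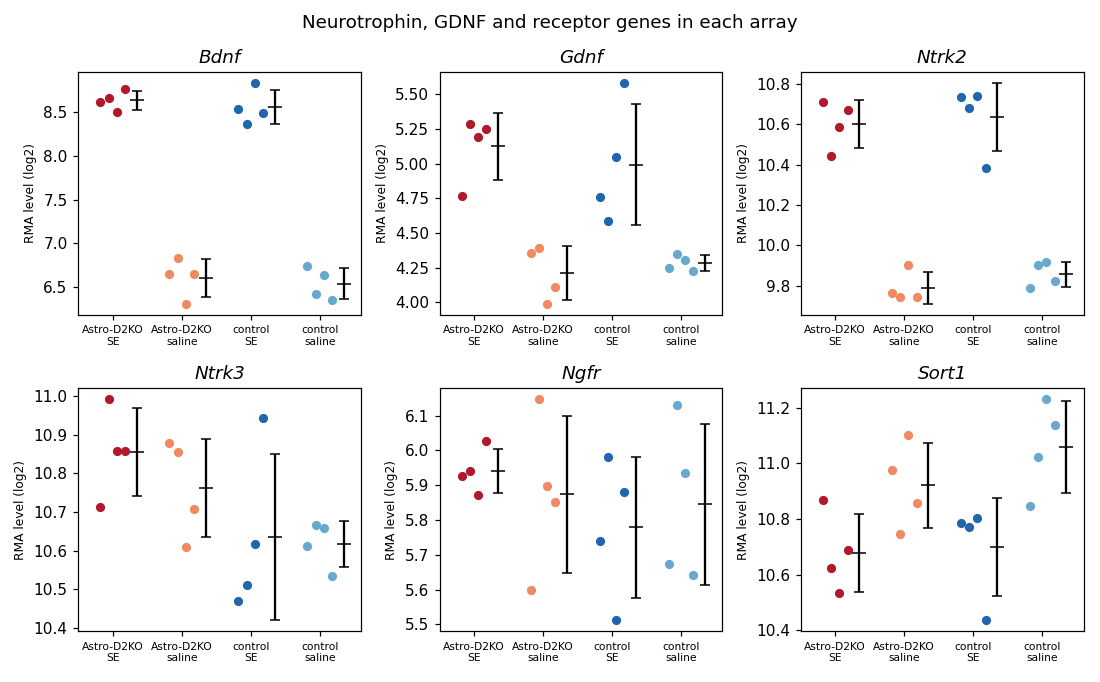
RMA levels (log2) of the 6 genes in each of the 16 arrays, 1 point per array with replicates 1 to 4 from left to right, and the mean with its standard deviation beside each group; the axes differ between genes and do not start at 0. For Bdnf, Gdnf and Ntrk2 all SE arrays lie above all saline arrays of the same genotype, with Bdnf between 8.37 and 8.83 after SE in control mice.

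Sort1, the sortilin gene, was the member that fell, and only by its brighter probe set in control mice. There it stood at 10.78, 10.77, 10.80 and 10.44 after SE, against 10.85, 11.02, 11.23 and 11.14 under saline. The groups did not overlap, with the array labelled control SE replicate 4 far below the others, but the highest SE array and the lowest saline array were close. The fall was -0.36 ± 0.11 (1.28-fold lower, limma adjusted p = 0.0245).

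The Sort1 call was not stable. It was lost without the array labelled control SE replicate 4 (-0.27, with an adjusted p of 0.0817), without control saline replicate 3 (-0.30, 0.0847) or without control saline replicate 4 (-0.33, 0.0608). It was also lost when only the control arrays were fitted (adjusted p = 0.0522). In Astro-D2KO mice Sort1 stood at 10.87, 10.62, 10.53 and 10.69 after SE, against 10.98, 10.75, 11.10 and 10.86 under saline. Those groups overlapped, and the difference of -0.24 ± 0.11 did not pass (adjusted p = 0.140). Without both arrays whose Dio2 level stood apart it was -0.31 and passed (adjusted p = 0.0476), while that in control mice was -0.27 and did not (0.0693).

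A second, dimmer Sort1 probe set went the other way. In Astro-D2KO mice it stood at 6.45, 6.23, 6.39 and 6.38 after SE, against 6.11, 6.23, 6.31 and 6.19 under saline, with overlap. In control mice it stood at 6.39, 6.37, 6.25 and 5.76 after SE, against 5.98, 5.97, 5.97 and 6.18 under saline. Of these control SE arrays, 3 lay above every saline array, and replicate 4 lay below all of them. The difference was 0.15 ± 0.12 in Astro-D2KO mice and 0.17 ± 0.12 in control mice, and neither passed (limma adjusted p = 0.501 and 0.421 over all 41345 probe sets). Without control SE replicate 4, an alternative added after seeing the data, the difference in control mice was 0.31 and passed (adjusted p = 0.024), and without control SE replicate 1 it was 0.10 and did not (0.688). With both probe sets averaged, the Sort1 difference in control mice was -0.10 and did not pass (adjusted p = 0.582). The sources used here do not say which part of the transcript each probe set reads.

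**Figure D2:**
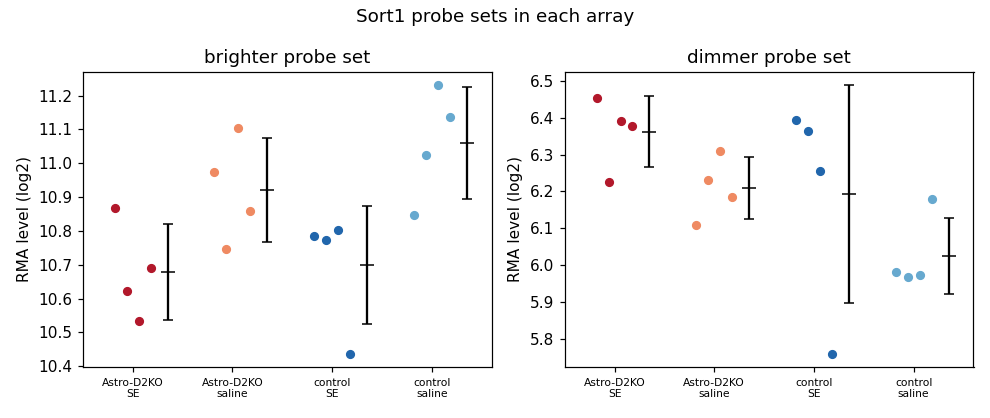
RMA levels (log2) of the brighter and the dimmer Sort1 probe set in each array, with the mean and standard deviation of each group; the axes do not start at 0. The brighter probe set is lower after SE in control mice by 0.36. The mean of the dimmer one is higher there by 0.17, which did not pass. That value includes the array labelled control SE replicate 4, at 5.76.

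Ntrk3 and Ngfr gave no call after SE. Ntrk3, the TrkC gene, stood at 10.71, 10.99, 10.86 and 10.86 in Astro-D2KO mice after SE, against 10.88, 10.86, 10.61 and 10.71 under saline. Those groups overlapped, with a difference of 0.09 ± 0.10 and a 95% interval from -0.12 to 0.30 (limma adjusted p = 0.592).

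In control mice Ntrk3 stood at 10.47, 10.51, 10.62 and 10.94 after SE, against 10.61, 10.67, 10.66 and 10.53 under saline. The SE arrays enclosed the saline arrays, with the array labelled control SE replicate 4 the highest. The difference was 0.02 ± 0.10, with an interval from -0.19 to 0.23 (adjusted p = 0.932). Differences of either sign within these intervals remain possible.

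Ngfr, the p75 gene, stood at 5.93, 5.94, 5.87 and 6.03 in Astro-D2KO mice after SE, against 5.60, 6.15, 5.90 and 5.85 under saline. In control mice it stood at 5.74, 5.98, 5.51 and 5.88 after SE, against 5.67, 6.13, 5.94 and 5.64 under saline. The groups overlapped in either genotype. The differences were 0.07 ± 0.13, with an interval from -0.20 to 0.34, in Astro-D2KO mice and -0.07 ± 0.13, from -0.34 to 0.20, in control mice (limma adjusted p = 0.780 and 0.778). Cholinergic neurons of the basal forebrain are rich in p75, and markers of those cells were dim in every array, with a mean level of the 6 measured markers between 4.62 and 4.94.

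In counts, 3 of the 6 genes passed in Astro-D2KO mice after SE, all as rises, where 20.1% of all genes passed, 7.49% as rises and 12.6% as falls. In control mice 4 of 6 passed, 3 as rises and 1 as a fall, where 22.1% of all genes passed, 8.42% as rises and 13.7% as falls. The SE and saline arrays did not overlap for the same 3 genes in Astro-D2KO mice, against 24.6% of all genes, and for the same 4 in control mice, against 22.1%. The median difference of the 6 genes was 0.45 in Astro-D2KO mice and 0.36 in control mice, beside -0.01 and -0.02 over all genes. The members were chosen with earlier results known, so these counts describe the list and carry no test of it.

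Genotype was compared next, to see whether the deletion of Dio2 in glia went with other levels of these genes or another response to SE. None of the 6 genes passed in limma for Astro-D2KO against control mice under saline, after SE, or for the interaction, the response to SE in Astro-D2KO minus that in control animals. Over all genes 0% passed in each of these comparisons. The arrays of the genotypes overlapped for all 6 genes under saline and after SE, where 2.61% and 2.94% of all genes did not overlap. At an unadjusted p below 0.05, 885 of the 22180 genes (3.99%) were found under saline, 1358 (6.12%) after SE and 1031 (4.65%) for the interaction. The first of these comparisons shares its saline controls, and the second its SE mice, with the SE comparisons above.

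For Bdnf the response to SE differed between Astro-D2KO and control mice by 0.01 ± 0.17, with a 95% interval from -0.35 to 0.37. After SE the Bdnf mean was 8.63 ± 0.11 in Astro-D2KO mice and 8.56 ± 0.20 in control mice. Under saline it was 6.61 ± 0.22 in Astro-D2KO mice and 6.54 ± 0.18 in control mice (SD, n = 4 each). In order of level the SE groups thus stood above the saline groups, and within each treatment the genotypes differed by less than the spread between arrays.

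The interaction was 0.20 ± 0.24 for Gdnf (from -0.30 to 0.70), 0.04 ± 0.12 for Ntrk2 (from -0.23 to 0.30), 0.08 ± 0.14 for Ntrk3, 0.13 ± 0.18 for Ngfr and 0.12 ± 0.15 for Sort1. The widest interval was that of Gdnf, whose control SE arrays ranged from 4.58 to 5.58. For Gdnf the interaction was 0.52 ± 0.16 without the arrays labelled Astro-D2KO SE replicate 1 and control SE replicate 4. It did not pass there either (limma adjusted p = 0.669). The Gdnf difference between the genotypes after SE was 0.13 ± 0.17 with all arrays and 0.45 ± 0.12 without these. It passed in neither setting (limma adjusted p = 0.931 and 0.181). Without the same arrays the interaction was 0.23 for Ntrk3, -0.03 for Sort1, -0.08 for Ntrk2 and -0.01 for Bdnf, and none of these passed (adjusted p = 0.766, 0.978, 0.923 and 0.997).

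Ntrk3 had the smallest genotype p. After SE its mean was 10.86 ± 0.11 in Astro-D2KO mice and 10.63 ± 0.21 in control mice, and under saline it was 10.76 ± 0.13 in Astro-D2KO mice and 10.62 ± 0.06 in control mice (SD, n = 4 each). The difference after SE was 0.22 ± 0.10, with an unadjusted limma p of 0.0414, an adjusted p of 0.802 and an exact permutation p of 0.114. The array labelled control SE replicate 4 lay within the range of the Astro-D2KO SE arrays, while the other control SE arrays all lay below that range. Without it the difference was 0.32 (adjusted p = 0.246), and without the array labelled Astro-D2KO SE replicate 1 as well it was 0.37 (0.140). Neither passed. Under saline the difference was 0.15 ± 0.10 and the groups overlapped at 1 Astro-D2KO array. Oligodendrocyte markers also stood at other levels between the genotypes after SE: all 7 measured were lower in Astro-D2KO mice, by differences between -0.43 and -0.26. Of them 6 had an unadjusted limma p below 0.05, beside 6.12% of all genes, and 0 passed after adjustment. In the other marker lists that count was 1 for pericytes and smooth muscle and 0 for each of the rest. Markers of 1 cell type were read on the same arrays, so they are not independent counts. The part of the oligodendrocyte markers in the Ntrk3 difference was not tested.

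**Figure D3:**
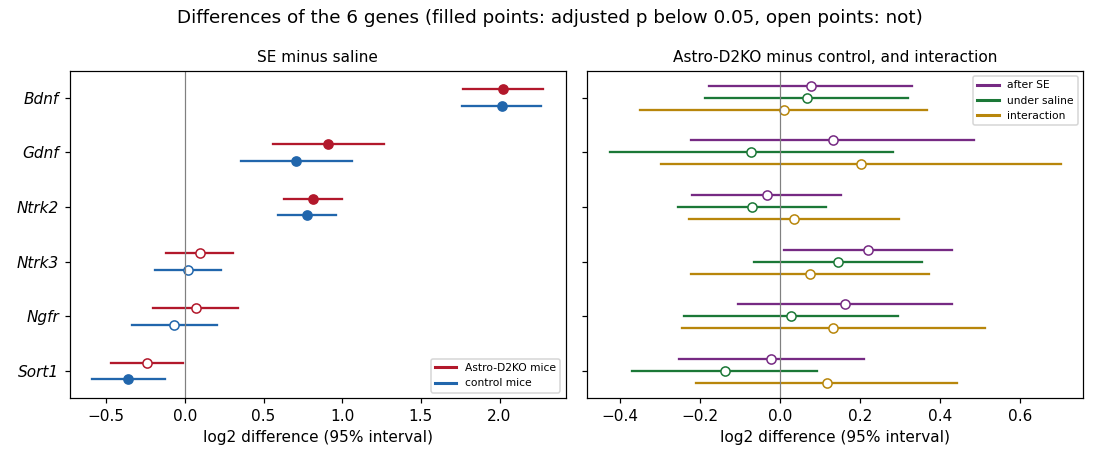
Differences in log2 level with 95% intervals from limma for the 6 genes, SE minus saline within each genotype on the left, and Astro-D2KO minus control with the interaction on the right. Bdnf stands near 2.01 and 2.02 in the left panel, and in the right panel every point is open, with Ntrk3 after SE at 0.22.

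The genes that make, process and receive these factors were described by 7 lists. Without the 6 genes above they named 73 genes, of which 65 were measured. In Astro-D2KO mice 12 of the 65 rose after SE and 7 fell, so 29.2% passed beside the 20.1% of all genes. In control mice 13 rose and 10 fell, 35.4% beside 22.1%. The lists too were chosen with earlier results known, so these shares describe them and carry no test. None of the 65 passed in limma for genotype under saline, after SE or for the interaction.

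Genes for processing of the precursor held the largest rise outside the transcription regulators. Of the 11 measured, 3 rose and 0 fell in Astro-D2KO mice, and 4 rose and 0 fell in control mice. Pcsk1, a convertase of the regulated secretory pathway, had a mean of 10.48 ± 0.085 after SE and 7.06 ± 0.15 under saline in Astro-D2KO mice (SD, n = 4 each), a rise of 3.42, and rose by 3.36 in control mice. Plat, tissue plasminogen activator, which starts the plasmin cascade that can cleave proBDNF outside cells, rose by 1.05 in Astro-D2KO mice and 1.10 in control mice. Furin, a convertase of the trans-Golgi network, rose by 0.79 in Astro-D2KO mice and 0.86 in control mice. Mmp3, a matrix metalloprotease chosen after its values were seen, rose by 0.50 in control mice, from a dim signal with a mean of 4.32. Its call ended when saline replicate 1 (0.44, adjusted p = 0.0510) or SE replicate 3 (0.38, 0.0628) of the control mice was left out. In Astro-D2KO mice the Mmp3 mean was 4.31 after SE and 4.25 under saline.

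The GDNF family of 10 genes had 2 rises and 1 fall in either genotype. Besides Gdnf, Gfra1, the main co-receptor for GDNF, stood at 9.49, 10.31, 10.08 and 9.53 in Astro-D2KO mice after SE, against 8.63, 8.54, 8.47 and 9.04 under saline. The groups did not overlap, and the rise was 1.18 ± 0.25 (limma adjusted p = 0.00267).

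In control mice Gfra1 stood at 9.63, 8.70, 9.08 and 10.15 after SE, against 8.83, 8.63, 8.43 and 8.27 under saline. There the groups overlapped, and the array labelled control SE replicate 4 was the highest. The rise was 0.85 ± 0.25 (limma adjusted p = 0.0209), and without that array it was 0.59 and did not pass (0.0705). Leaving out saline replicate 3 (0.81, adjusted p = 0.0524), saline replicate 4 (0.76, 0.0604) or SE replicate 1 (0.77, 0.0619) of the control mice also ended the call. A dim second Gfra1 probe set, with a mean of 3.90, gave 0.26 in Astro-D2KO mice and -0.22 in control mice, and neither passed (adjusted p = 0.252 and 0.325).

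Gfra4, another co-receptor of the family, fell by 0.44 in Astro-D2KO mice and by 0.40 in control mice. Ret, the signalling kinase, had differences of 0.22 in Astro-D2KO mice and -0.04 in control mice (limma adjusted p = 0.499 and 0.911). In Astro-D2KO and control mice the ligand genes Nrtn (0.23 and -0.25), Artn (0.14 and 0.25) and Pspn (0.13 and 0.02) did not pass, nor did the co-receptor genes Gfra2 (-0.10 and -0.24) and Gfra3 (0.21 and 0.05).

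Of the neurotrophin ligand and receptor list, 5 of 8 genes were measured, and Bdnf and Ntrk2 rose in either genotype. Ntf5, which encodes neurotrophin-4, was dim with a mean of 4.86, and its differences of -0.24 in Astro-D2KO mice and -0.09 in control mice did not pass (limma adjusted p = 0.214 and 0.702).

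Within the sortilin family, 5 of 5 genes were measured, with 1 rise and 0 falls in Astro-D2KO mice, and 1 rise and 3 falls in control mice. Sorcs3, a neuronal receptor of the family, stood at 10.00, 10.44, 10.18 and 10.29 in Astro-D2KO mice after SE, against 9.71, 9.65, 8.65 and 9.61 under saline. The groups did not overlap, and saline replicate 3 lay far below the others. Sorcs3 rose by 0.82 ± 0.24 (limma adjusted p = 0.0219), a call that was lost without that saline array (0.57, 0.0804) or without Astro-D2KO SE replicate 2 (0.75, 0.0630).

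In control mice Sorcs3 stood at 9.61, 9.46, 9.47 and 10.49 after SE, against 9.24, 8.55, 8.67 and 8.61 under saline. The groups did not overlap and the array labelled control SE replicate 4 was the highest. The rise was 0.99 ± 0.24 (limma adjusted p = 0.00628), and 0.75 without that array.

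Besides Sort1, the falls in control mice were of Sorcs2 (-0.37), which forms a receptor complex with p75, and of Sorl1 (-0.29), a sorting receptor named after its values were seen. The Sorcs2 call ended when saline replicate 2 (-0.31) or SE replicate 3 (-0.31) of the control mice was left out, and that of Sorl1 without any of 4 single arrays, among them the array labelled control SE replicate 4 (-0.25). Of the 5 genes, 1 was called in Astro-D2KO mice, but 0 without saline replicate 3 or SE replicate 2 of that genotype, and 2 without its saline replicate 2 or, of the control mice, saline replicate 4 or SE replicate 2. In control mice 4 were called, but 2 when any 1 of saline replicate 2, SE replicate 3 and SE replicate 4 was left out. The differences of Sorcs2 and Sorl1 in Astro-D2KO mice were -0.17 and -0.25 (adjusted p = 0.293 and 0.0548).

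**Figure D4:**
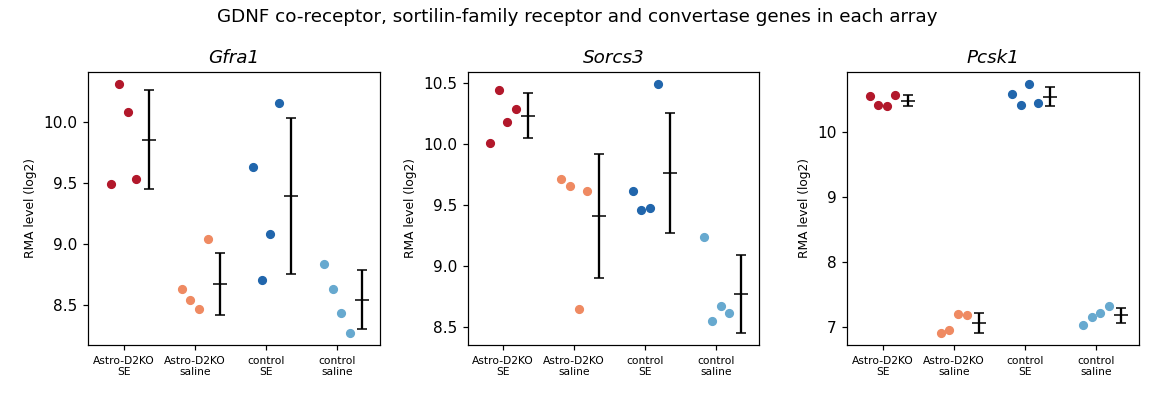
RMA levels (log2) of Gfra1, Sorcs3 and Pcsk1 in each array, 1 point per array with replicates 1 to 4 from left to right, beside the mean and standard deviation of each group; the axes differ and do not start at 0. Pcsk1 separates SE from saline arrays by 3.36 in control mice, while Gfra1 in control mice overlaps, from 8.70 to 10.15 after SE and from 8.27 to 8.83 under saline.

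The adaptors that carry signals from Trk receptors had small differences. Of 16 measured, 3 rose and 2 fell in Astro-D2KO mice, and 2 rose and 2 fell in control mice. Gab2, a docking protein, rose by 0.36 in Astro-D2KO mice and 0.47 in control mice, and Shc2, an adaptor of the Shc family, fell by 0.37 in Astro-D2KO mice and by 0.30 in control mice. Grb2, which links receptors to Ras, had a difference of 0.16 in Astro-D2KO mice, which did not pass, and rose by 0.32 in control mice. Named after their values were seen, Plcg1, the phospholipase C gamma gene, fell by 0.29 in Astro-D2KO mice and by 0.27 in control mice, and Sh2b2 and Crkl, adaptor genes, rose in Astro-D2KO mice by 0.34 and 0.26. In control mice Sh2b2 and Crkl differed by 0.28 and 0.24 and did not pass (limma adjusted p = 0.0576 and 0.0597). Both passed there when the quantile step was repeated (limma adjusted p = 0.0331 and 0.0334). The count in control mice was 2 without control saline replicate 2. In Astro-D2KO mice it was 2 without Astro-D2KO saline replicate 3, and 3 without saline replicates 1 or 2 or SE replicates 1, 3 or 4 of that genotype.

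Several of the adaptor calls changed when 1 array was left out. That of Grb2 was lost without control saline replicates 2, 3 or 4 or without the SE array of control replicate 4 (0.26, limma adjusted p = 0.0737). That of Shc2 in control mice was lost when replicate 2 of either treatment was left out, and that of Plcg1 in control mice when SE replicate 1 or 3 was. In Astro-D2KO mice the Gab2 call was lost without saline replicates 2 or 3 or SE replicates 3 or 4 of that genotype. The calls of Crkl and Sh2b2 there were lost without any 1 of 7 and any 1 of 5 arrays.

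Of the 9 measured partners of p75 on the list, 0 passed in either genotype, with differences between -0.05 and 0.14 in Astro-D2KO mice and between -0.21 and 0.24 in control mice. By limma 1 passed in control mice when either SE replicate 2 or SE replicate 4 was left out. At an unadjusted p below 0.05 the count was 0 in Astro-D2KO mice, beside 30.8% of all genes, and 2 in control mice, beside 33% of all genes.

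Known regulators of Bdnf transcription moved in both directions. Of 15 measured, 4 rose and 4 fell in Astro-D2KO mice, and 5 rose and 5 fell in control mice. Npas4, an activity-induced factor that binds Bdnf promoters, rose by 4.79 ± 0.39 in Astro-D2KO mice and by 4.97 ± 0.39 in control mice. Its lowest control SE level was 8.96, in replicate 4, while replicates 1 to 3 held 11.13 to 11.57. Bdnf stood at 8.49 in control SE replicate 4, and a link between Npas4 and Bdnf levels was not tested.

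Crem, a CREB relative with repressor forms, rose by 0.99 in Astro-D2KO mice and 1.01 in control mice. Carf, a calcium-responsive factor first found through a Bdnf promoter, fell by 0.98 in Astro-D2KO mice and by 0.96 in control mice. Its Astro-D2KO levels were 6.76, 7.07, 6.81 and 7.07 after SE, against 7.94, 7.83, 7.91 and 7.95 under saline, with no overlap. The other calls were named after their values were seen. Bhlhe40, a repressor, rose by 0.49 in Astro-D2KO mice and 0.59 in control mice, and Srf, the serum response factor, rose by 0.61 in Astro-D2KO mice and 0.46 in control mice. Rest, a repressor of neuronal genes, rose by 0.34 in control mice, with the call lost without any 1 of 9 single arrays. In Astro-D2KO mice the Rest mean was 6.26 after SE and 6.06 under saline, without a call. In Astro-D2KO mice Usf2 (-0.22), which binds E-boxes, Hdac2 (-0.42), a histone deacetylase, and Mef2a (-0.36), a calcium-regulated factor, fell. In control mice these fell too, at -0.31, -0.38 and -0.22, as did Usf1 (-0.31), a relative of Usf2. The Usf1 mean in Astro-D2KO mice was 6.81 after SE and 6.97 under saline, without a call. The Usf2 call in Astro-D2KO mice was lost without any 1 of 7 arrays, and that of Mef2a in control mice without any 1 of 14 of the 16. That of Hdac2 in control mice ended when saline replicate 1 or SE replicate 1, 2 or 3 of the same genotype was left out.

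**Figure D5:**
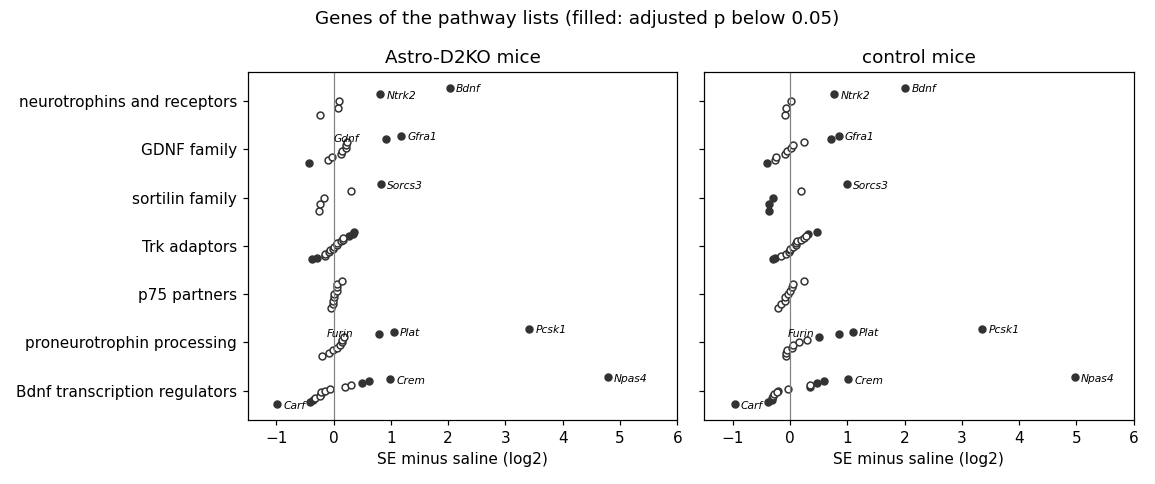
SE minus saline differences (log2) of every measured gene of the 7 lists in Astro-D2KO mice (left) and control mice (right), filled where the limma adjusted p was below 0.05. Npas4 (4.79 and 4.97) and Pcsk1 (3.42 and 3.36) lie furthest out, followed by Bdnf.

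Genes with the profile most like that of a member were sought by the root mean square difference over the 16 arrays between log2 values centred on each gene's own mean. Nearest to Bdnf were Errfi1 (0.165), Nfil3 (0.170) and Sik2 (0.187), against a median of 1.04 over all genes. The SE difference of Errfi1 was 2.00 in Astro-D2KO mice and 2.10 in control mice. Nearest to Ntrk2 were Arhgap31 (0.0741), Cnnm1 (0.0874) and Preb (0.0932), against a median of 0.446. Nearest to Gdnf were Sh3pxd2b (0.182), Fstl4 (0.191) and Pak3 (0.193), against a median of 0.501. Nearest to Sort1 were Rragb (0.0663), Chn1 (0.0698) and Chd3 (0.0725), against a median of 0.261. The measure rests on 16 arrays in 4 groups. The genes named were picked as the nearest of all, so they lie below the median by choice. The measure itself brings genes with a like SE difference close together.

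Cell type markers were read beside these results because fewer cells of a type and less RNA per cell cannot be told apart in bulk tissue. In Astro-D2KO mice after SE 1 of the 10 astrocyte markers rose and 1 fell, and 2 of the 8 neuron markers rose and 1 fell, while in control mice the counts were 1 and 3 for astrocytes and 1 and 2 for neurons. Over all genes 7.49% rose and 12.6% fell in Astro-D2KO mice, and 8.42% rose and 13.7% fell in control mice. The mean level of the astrocyte markers was 9.31 to 9.36 in Astro-D2KO mice after SE and 9.27 to 9.44 under saline, and 9.26 to 9.37 in control mice after SE and 9.30 to 9.48 under saline. Neuron markers ranged from 10.91 to 10.99 in Astro-D2KO mice after SE and from 10.90 to 10.93 under saline, with group means of 10.95 in control mice after SE and 10.96 under saline. Members of these lists moved in opposite directions, as Sox9 (0.59) and Fgfr3 (-0.74) did among the astrocyte markers of Astro-D2KO mice. The part of cell composition in the Ntrk2 rise was not tested.

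Dentate granule cell markers had 0 rises and 2 falls of 8 in Astro-D2KO mice and 0 and 3 in control mice. Microglia markers had 0 rises and 4 falls of 7 in Astro-D2KO mice and 0 and 3 in control mice. Falls made up 12.6% of all genes in Astro-D2KO mice and 13.7% in control mice. The mean level of the microglia markers was 6.69 to 7.02 in Astro-D2KO mice after SE and 7.22 to 7.49 under saline, and 6.75 to 7.13 in control mice after SE and 7.24 to 7.43 under saline. Microglia markers thus stepped down where Bdnf, Gdnf and Ntrk2 stepped up, and their part in those results was not tested.

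Endothelial markers had 4 rises and 1 fall of 8 in either genotype. Over all genes 7.49% rose and 12.6% fell in Astro-D2KO mice, and 8.42% and 13.7% in control mice. The rises and falls were 0 and 1 of 6 in Astro-D2KO mice and 0 and 2 in control mice for oligodendrocyte precursors, and 0 and 2 of 7 in Astro-D2KO mice and 0 and 0 in control mice for oligodendrocytes. For pericytes and smooth muscle they were 0 and 1 of 8 in Astro-D2KO mice and 1 and 2 in control mice, and for meningeal fibroblasts 0 and 0 of 8 in Astro-D2KO mice and 0 and 1 in control mice. Choroid plexus markers (8 measured) and cholinergic neuron markers (6 measured) had 0 limma calls in either genotype, and at an unadjusted p below 0.05 the counts were 0 for choroid plexus in either genotype and, for cholinergic neurons, 2 in Astro-D2KO mice and 0 in control mice, beside 30.8% of all genes in Astro-D2KO mice and 33% in control mice. Choroid plexus markers varied within groups, with mean levels from 5.86 to 7.84 in Astro-D2KO mice after SE and from 5.98 to 8.19 in control mice under saline.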

How the data were processed

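Hippocampal RNA of 16 mice was hybridised as biotin-labelled cDNA to 1 Affymetrix array each. The deposited table holds RMA values per the submitters' processing notes. The authors' values run from 1.70 to 13.79 and were taken as log2, as RMA gives, since the log base is not stated in the table. The quantile step of RMA forces the probe values of the arrays to 1 distribution, so a shift common to all genes cannot be seen. The deposited probe set values still had array medians from 5.77 to 5.82. No detection calls, scan dates or batches were given in the sources used here. Groups came from the sample titles, which name separate mice.

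Of 41345 probe sets, 23521 carried 1 gene symbol in the platform annotation, 1814 several and 16010 none, and probe sets with several or none were not named. The brightest probe set by the mean over all arrays stood for each of 22180 genes. A linear model of the 4 groups was fitted to all genes and all arrays with limma 3.58.1 in R 4.3.3 (lmFit, eBayes), without a replicate block. P-values were adjusted over all genes by the Benjamini-Hochberg method, and a gene passed at an adjusted p below 0.05. Single genes also had two-sided exact permutation tests. The code was tested on simulated data.

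The 6 genes, the 7 pathway lists and the 11 marker lists were chosen with earlier results of these data known. From each pathway list the genes called in control mice were named, up to the 3 with the largest difference, besides all ligands and receptors of both families; other names are marked as chosen after their values were seen. For each member called after SE the 3 genes nearest in profile were named. Alternatives left out each array, left out both SE arrays whose Dio2 level stood apart, added the replicate block, averaged probe sets, tested all probe sets, centred arrays on their medians, repeated the quantile step, required a mean of at least 5, used trend and robust eBayes, or fitted only the groups compared. Leaving out arrays for the dimmer Sort1 probe set was added after seeing the data. Start regions were taken from RefSeq on GRCm38.p6.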

Additional observations from a re-analysis of the deposited data

Results flagged for a closer look

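In 5 of the 32 sets of 4 arrays examined, 1 array stood far from the other 3 by Dixon's criterion, where chance alone marks about 1 set in 20. In control SE replicate 4, Ntrk2 stood at 10.38, against 10.68 to 10.74 in the other 3, with a gap of 0.835 of the group's range. Sort1 stood at 10.44 in the same array, against 10.77 to 10.80, with a gap of 0.914. Ntrk2 was 9.90 in Astro-D2KO saline replicate 3, against 9.74 to 9.76, with a gap of 0.871. The dimmer Sort1 probe set was 6.18 in control saline replicate 4, against 5.97 to 5.98, with a gap of 0.941. Dio2 was 8.91 in the array labelled Astro-D2KO SE replicate 1, against 7.03 to 7.17, with a gap of 0.925.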

How the results depend on the processing

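Under 25 alternatives, 16 of which left out 1 array, 739 values of the 6 genes were recomputed. Of these, 732 kept their direction or stayed without a call and kept their side of the threshold, 6 lost a call, 1 gained one and 0 called values changed sign, while 32 values not called under either setting changed sign. All 6 losses were of Sort1 in control mice and are given in the report. Many of the 739 values had little room to change. Leaving out an array of the other genotype does not move an SE difference, only its error and p. For genotype and interaction the limma adjusted p with all arrays was 0.802 or higher for every member. The count of 732 is thus not a measure of stability. Over the alternatives the limma adjusted p of Bdnf ran from 1.66e-09 to 1.72e-06 in Astro-D2KO mice and from 1.61e-09 to 3.39e-06 in control mice, that of Gdnf from 2.09e-05 to 0.00432 and from 0.00163 to 0.017, and that of Ntrk2 from 7.15e-07 to 0.000105 and from 1.11e-06 to 0.000406. Gdnf had no value when a mean of at least 5 was required. Over all genes 5 passed for genotype after SE without both arrays whose Dio2 level stood apart, 2 without the array labelled control SE replicate 4 and 1 without that labelled Astro-D2KO SE replicate 1. Without both of these arrays 1 passed under saline and 1 for the interaction, and 1 passed under saline when only those groups were fitted. With the replicate block 4109 genes passed after SE in Astro-D2KO mice and 4576 in control mice, and 0 for genotype or interaction, with no change in any member's call. To look for pairs, each gene's group mean was subtracted and the remaining deviations were correlated between arrays of the compared groups. These deviations correlated between -0.286 and 0.338 for same-numbered arrays, not all above 0.1, so the numbers were not taken as pairs. By its deviations an array correlated best with its own number in 0, 0, 2 and 0 of 4 cases over the comparisons. The causes of these changes were not tested. Gdnf was dim, and the table gives no signal over background.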
